A study of Mus musculus with 26 samples.

Results

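The regions described here are stretches of chromatin that were first listed as open on day 5 of motor neuron differentiation and were still listed as open on day 6. They were chosen by their ATAC-seq peaks: each is a day 5 peak that shares at least 1 bp with a day 6 peak and shares no base with any day 2 or day 4 peak. The rule gave 8525 of the 55131 day 5 peaks, or 15.5%, called the kept regions below. They make up 43.1% of the 19784 day 5 peaks that had no day 2 or day 4 peak. The other 11259 of those peaks, which no day 6 peak overlapped, are called day 5-only regions.

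The study turned mouse embryonic stem (ES) cells into spinal motor neurons in culture. ATAC-seq, which marks open chromatin by where a transposase can cut, was run on day 2 (no factor added), on day 4 (1 uM retinoic acid and 0.25 uM of the Hedgehog agonist SAG from day 2) and on days 5 and 6 (the same, with 5 uM of the Notch pathway inhibitor DAPT on day 4, and on days 4 and 5 for day 6). Isl1 and Onecut1 (by ChIP-exo, in which an exonuclease sharpens the edges of each bound fragment), p300 and the histone mark H3K27ac were mapped on days 5 and 6 under these same treatments, and H3K27ac also on day 4. The labels give the iCre line for all of these libraries, and name Ainv15 as the parent cells of every sample, although the deposited file name of the second day 4 H3K27ac library mentions the HBG3 line. Isl1 had 2 libraries on each day and H3K27ac 2 on day 4, while every other list came from 1 library. Side lists from other lines were used as well. A V5 ChIP-exo library labelled Lhx3 came from the NIL line on day 4 (retinoic acid and 3 ug/ml doxycycline from day 2, with no SAG named); its deposited file name mentions Isl1, and the mapped factor is therefore taken as uncertain. Ngn2 was mapped through a V5 tag on day 4 in a line given retinoic acid and SAG on day 2 and 3 ug/ml doxycycline on day 3. Day 0 ES cells of the HBG3 line were mapped by DNase-seq.

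Cells gain open chromatin where transcription factors displace nucleosomes, and newly opened sites far from promoters often act as enhancers. Isl1 is a LIM-homeodomain factor that specifies motor neurons together with Lhx3, and Onecut1 is a cut-homeodomain factor of young motor neurons. p300 is an acetyltransferase recruited to active enhancers, and H3K27ac, the acetylation it deposits, marks active enhancers and promoters.

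The RNA table placed the cells along this path. Isl1 RNA stood at 0.0985, 3.68, 88.0 and 116 FPKM on days 0, 4, 5 and 6, and Onecut1 RNA at 0.0586, 1.99, 12.5 and 14.0 FPKM. All 5 motor neuron markers listed reached 1 FPKM on days 5 and 6, and none of 3 pluripotency, 4 interneuron or 3 endothelial and blood markers did. Of 3 glial markers, Mbp was at 11.5 and 9.90 FPKM on these days and the others were below 1. Progenitor genes were still present on day 5 (4 of 4 at 1 FPKM or more, Olig2 at 17.3) and less so on day 6 (2 of 4). By the labels, day 0 and day 4 RNA was from HBG3 cells and day 5 and day 6 RNA from iCre cells. The ATAC lists held 85989, 47839, 55131 and 52645 peaks on days 2, 4, 5 and 6. Read numbers are not given in the sources used here, but low scores in each ATAC list were whole multiples of 1 step (100% within 0.05 of a step). The step was 0.244, 0.349, 0.279 and 0.405 on days 2, 4, 5 and 6, so 1 count was worth more on days 4 and 6 than on days 2 and 5. A site missing from the day 4 or day 6 list may therefore have been below that list's reach, whose lowest score was 10 steps on day 4, 11 on day 6 and 12 on days 2 and 5.

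The kept regions are compared with the day 5-only regions, with 13120 late regions (day 6 peaks with no peak of any earlier day) and with 18394 constant regions (day 5 peaks overlapped on days 2, 4 and 6). By the rule, day 5-only regions have no day 6 ATAC peak, while the other classes have one. How far differences from the day 5-only regions in day 6 readouts follow from that choice was not tested. A region was counted as having a protein when an event lay within 100 bp of its edges, and as acetylated when an H3K27ac peak lay within 500 bp. Isl1 was counted when either library of the day had an event, and day 4 H3K27ac when either library had a peak. Shares are given with exact 95% binomial (Clopper-Pearson) intervals and differences, in percentage points, with 95% Newcombe intervals. Both cover counting error only: regions of 1 library are not replicates, so differences between days have no test, except for Isl1 with its 2 libraries a day.

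The rule's edge ran through a continuum. The overlap of a kept region with its day 6 peak was between 1 and 100 bp with a median of 72.0 bp, and 73.3% overlapped by 50 bp or more. At the inner edge, 635 kept regions overlapped the day 6 peak by 20 bp or less and had a median day 5 score of 6.97. At the outer edge, 530 day 5-only regions had a day 6 peak within 20 bp without touching it, with a median score of 7.53. The score is the authors' own value per peak and is used only to rank peaks within a list.

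"No earlier peak" did not always mean closed chromatin nearby. Of the kept regions, 1490 (17.5%, 16.7 to 18.3) had a day 2 or day 4 peak within 250 bp, and 19.5% of the day 5-only regions did. The share climbed with day 5 score, from 7.86% in the lowest decile to 36.0% in the highest, and 18 of the 20 kept regions of highest score had such a neighbour. The strongest of all, chr4:16090807-16090906 (mm9, 1-based), scored 118 on day 5 and 143 on day 6. A day 4 peak scoring 65.2 lay 18 bp away and a day 2 peak scoring 72.9 lay 93 bp away. The next in rank, chr16:49699246-49699345, scored 102 on day 5 and had a day 2 peak of 61.7 at 12 bp and a day 4 peak of 60.0 at 34 bp. Next came chr15:43308671-43308770, which scored 101 on day 5, with a day 4 peak of 61.7 at 2 bp. At these places a peak had already been listed a few bp to the side on an earlier day. In contrast, chr1:106322061-106322160 had the highest mean rank among kept regions with no such neighbour. It scored 67.5 and 74.6, and its nearest day 4 peak was 70660 bp away.

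Regions with and without an earlier neighbour carried different marks. H3K27ac was present on day 4 at 50.8% of those with a neighbour and at 8.30% of the 7035 without, a difference of 42.5 points (39.9 to 45.1). Isl1 and Onecut1 went the other way: Isl1 on day 6 was at 2.48% against 11.9% (-9.41, -10.4 to -8.24) and Onecut1 on day 6 at 11.4% against 29.4% (-18.0, -19.9 to -16.0). Ngn2, a proneural factor of progenitors, was at 3.09% against 0.441%. The 7035 regions without a neighbour thus held 837 of the 874 kept regions with day 6 Isl1. Each difference between classes below was also computed without regions that have such a neighbour, which changed the call of 2: day 6 H3K27ac against constant regions and acetylation on all 3 days against day 5-only regions.

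**Figure D1:**
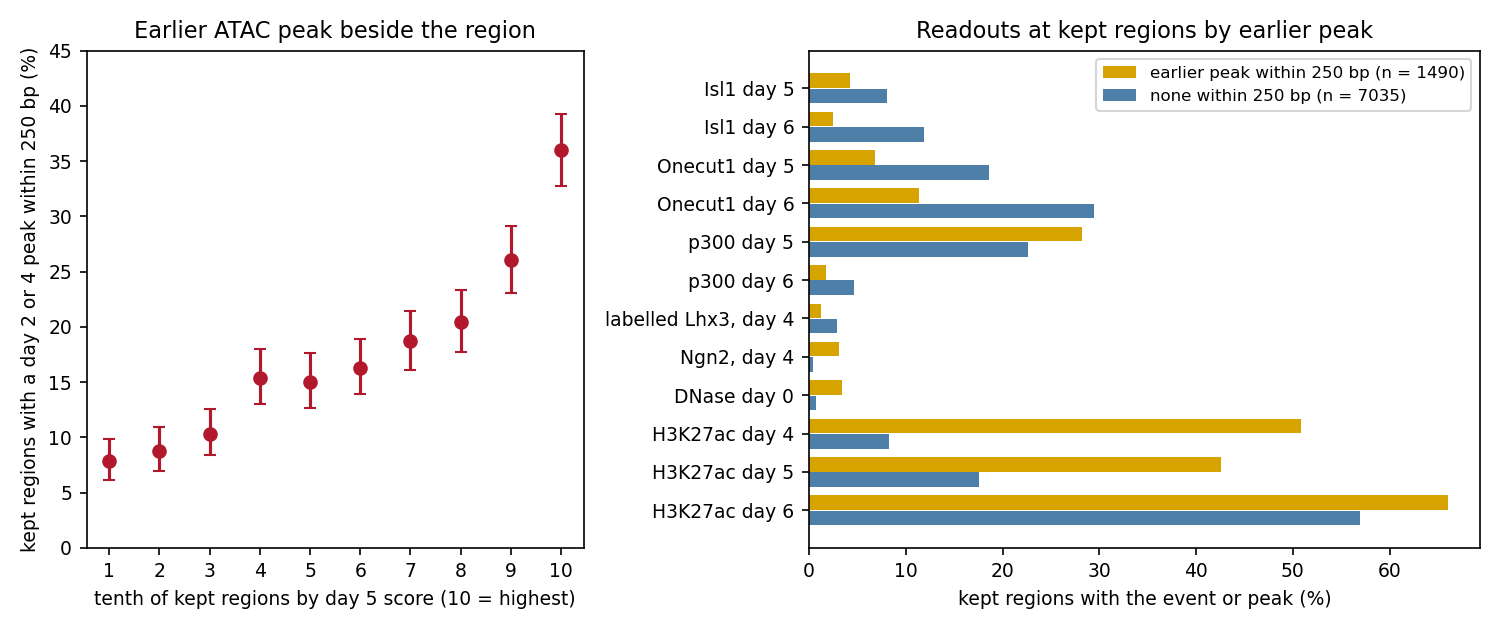
Left, share of kept regions with a day 2 or day 4 ATAC peak within 250 bp (%), by decile of day 5 score, with exact 95% binomial intervals. It climbs from 7.86% to 36.0%. Right, share with each mapped protein, DNase or H3K27ac peak for kept regions with (n = 1490) and without (n = 7035) such a neighbour: day 4 H3K27ac was at 50.8% and 8.30%, day 6 Onecut1 at 11.4% and 29.4%.

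In the day 5 list the kept regions were of middling to low rank. Their median score of 7.25 lay at percentile 41.0 of the list, above the day 5-only regions (5.86, percentile 26.6) and below the constant regions (15.3, percentile 75.9). Among the 34787 day 5 peaks that had a day 6 peak, the kept regions had a median percentile of 26.4 on day 5 and 30.5 on day 6. Ranks of the 2 days were more loosely tied in the kept regions than in the constant regions or all shared peaks. The rank correlation (Spearman) of the day 5 and day 6 scores was 0.500 over the kept regions, 0.890 over the constant regions and 0.808 over all 34787. It was 0.436 in the kept regions without an earlier neighbour and 0.744 in those with one. These are descriptions of values the rule drew on. The sets also differed in score: the day 5 median was 9.48 in kept regions with a neighbour and 6.97 in those without. Whether the level or range of scores bears on the correlations was not tested. Among the kept regions alone, the median size of the change in percentile rank from day 5 to day 6 was 16.7 points, and the extremes were -92.4 and 95.2.

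Isl1 sat at a higher share of the kept regions than of any class compared on either day. On day 5, 628 kept regions (7.37%, 6.82 to 7.94) had Isl1, against 3.12% of all day 5 peaks. On day 6, 874 (10.3%, 9.62 to 10.9) did, against 2.43% of all day 5 peaks. By library the shares were 6.09% and 3.58% on day 5 and 6.45% and 6.52% on day 6, and the day 5 libraries differed more from each other than the higher of them did from day 6. The mean share per library was 4.83% on day 5 and 6.49% on day 6 (n = 2 each, two-sided exact permutation p = 0.333, the smallest that 2 against 2 libraries can give). Counting an event in both libraries left 196 kept regions (2.30%) on day 5 and 232 (2.72%) on day 6. Shares of this stricter kind over all day 5 peaks were not computed.

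Most of the Isl1 difference from the day 5-only regions, which by the rule have no day 6 ATAC peak, was on day 6. There the kept regions exceeded the day 5-only regions (2.02%) by 8.24 points (7.55 to 8.94), the late regions (4.81%) by 5.44 (4.71 to 6.19) and the constant regions (0.234%) by 10.0 (9.39 to 10.7). The first of these was 5.26 to 5.35 points with 1 day 6 library left out and 2.38 with an event required in both libraries. On day 5 the kept regions exceeded the day 5-only regions (6.24%) by just 1.12 points (0.415 to 1.84). That sign turned once regions of like rank were compared: within quintiles of the day 5 list the kept regions were lower by 2.27 points (interval of the difference -3.19 to -1.36). At a given day 5 rank, day 5 Isl1 was thus less frequent in kept than in day 5-only regions, while day 6 Isl1 was more frequent by 7.21 points (6.43 to 7.99).

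The Isl1 lists of the 2 days shared part of their regions. Of the kept regions with Isl1 on day 5, 242 (38.5%) also had it on day 6. Isl1 was on day 5 alone at 386 kept regions (4.53%, against 2.41% of all day 5 peaks). A further 632 had it on day 6 alone (7.41%, against 1.72%). Libraries of the same day overlapped only in part too: of the kept regions in 1 library, 37.8% to 64.3% were also in the other library of that day and 15.8% to 43.9% in a library of the other day. A missing event in 1 list therefore does not show that Isl1 was absent on that day. Over all day 5 peaks 22.7% of day 5 Isl1 regions had it on day 6, and in the day 5-only regions 9.39% did. The kept regions held 25.5% and 30.7% of the events of the day 5 libraries, and 41.4% and 41.2% of those of day 6, although they were 15.5% of the day 5 peaks. All 4 libraries had an event at 46 kept regions (0.540%), 1 day 5-only region (0.00888%), 5 late regions (0.0381%) and 0 constant regions. The share over all day 5 peaks was not computed.

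Onecut1 was listed at more kept regions than Isl1 on both days, but its lists were also far longer. The Isl1 lists held 1079 to 2260 events per library, so the shares of the 2 factors are not compared. Onecut1 lay at 1409 (16.5%, 15.7 to 17.3) on day 5, against 5.57% of all day 5 peaks, and at 2241 (26.3%, 25.4 to 27.2) on day 6, against 9.86% of all day 5 peaks. The day 6 Onecut1 list was longer than that of day 5, with 63488 events against 23245. With both lists held to the same length the day 6 share was 22.3%. The kept regions exceeded the day 5-only regions by 9.63 points on day 5 (8.71 to 10.5) and by 16.2 points on day 6 (15.1 to 17.3), and these were 9.30 and 16.3 within quintiles of day 5 rank. Against the late regions the day 6 share was higher by only 1.34 points (0.152 to 2.54), and this lost its sign or its interval came to include 0 under 4 alternatives.

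Most kept regions with Onecut1 on day 5 also had it on day 6, as did most such regions of the other classes. The count was 1166 of 1409 (82.8%), against 75.5% over all day 5 peaks, 65.1% in the day 5-only, 80.6% in the late and 72.6% in the constant regions. At equal list length the share was 79.2% in the kept regions and 68.8% over all day 5 peaks. Onecut1 was listed on day 6 alone at 1075 kept regions (12.6%, against 5.65% of all day 5 peaks). It was listed on day 5 alone at 243 (2.85%, against 1.37%). Onecut1 events at the kept regions were stronger than those of the whole lists. Their median precipitated reads were 32.8 on day 5 and 85.0 on day 6, against 13.0 and 16.0 over the lists. Event strength at the other classes was not computed, so this is not read as particular to the kept regions. The kept regions held 9.33% of the day 5 events and 4.79% of the day 6 events.

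p300 was present at 2007 kept regions on day 5 (23.5%, 22.6 to 24.5), close to the 21.9% of all day 5 peaks. On day 6 it was at 356 (4.18%, 3.76 to 4.62), against 1.25% of all day 5 peaks. The lists differed in length by far, with 19398 events on day 5 and 1337 on day 6, and at equal length the shares were 1.75% and 4.18%, so no fall between days is read from them. The kept regions exceeded the day 5-only regions (13.0%) by 10.6 points on day 5 (9.48 to 11.7), which became 4.33 (3.08 to 5.58) within quintiles of rank and 1.07 (0.765 to 1.40) at equal list length. On day 6 the difference was 3.31 points (2.87 to 3.79). The constant regions had more p300 on day 5 (29.5%) and less on day 6 (0.533%) than the kept regions, although the day 5 difference turned to 0.766 in favour of the kept regions when the event had to lie inside the peak. Of the 356 kept regions with p300 on day 6, 225 (63.2%) had it on day 5 as well, near the 59.2% over all day 5 peaks.

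Among the events counted, which the 100 bp window limits, the median distance from the middle of the region was 40.0 to 43.0 bp for the Isl1 and Onecut1 libraries. For p300 it was 51.0 and 50.5 bp on days 5 and 6, at about the edge of the 100 bp peak. Of the kept regions 3116 (36.6%) had Isl1 or Onecut1 on at least 1 of the days, against 14.2% of all day 5 peaks. No event of Isl1, Onecut1 or p300 was listed on either day at 4330 (50.8%), against 67.9% of all day 5 peaks. Isl1 and Onecut1 were both present at 179 regions on day 5 (2.10%, against 0.619% of all day 5 peaks) and at 479 on day 6 (5.62%, against 1.25%).

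The earlier and induced factors were rare there. The library labelled Lhx3 had an event at 222 kept regions (2.60%, 2.28 to 2.96), against 0.931% of all day 5 peaks. The difference of 0.703 points (0.287 to 1.13) from the day 5-only regions was 0.185 (-0.322 to 0.691) within quintiles of rank. Ngn2 was at 77 kept regions (0.903%), below the 3.14% of all day 5 peaks and lower than in the day 5-only regions by 1.83 points (interval of the difference -2.20 to -1.47). Day 0 DNase sites lay at 100 (1.17%), against 4.06% of all day 5 peaks and 1.23% of the day 5-only regions.

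**Figure D2:**
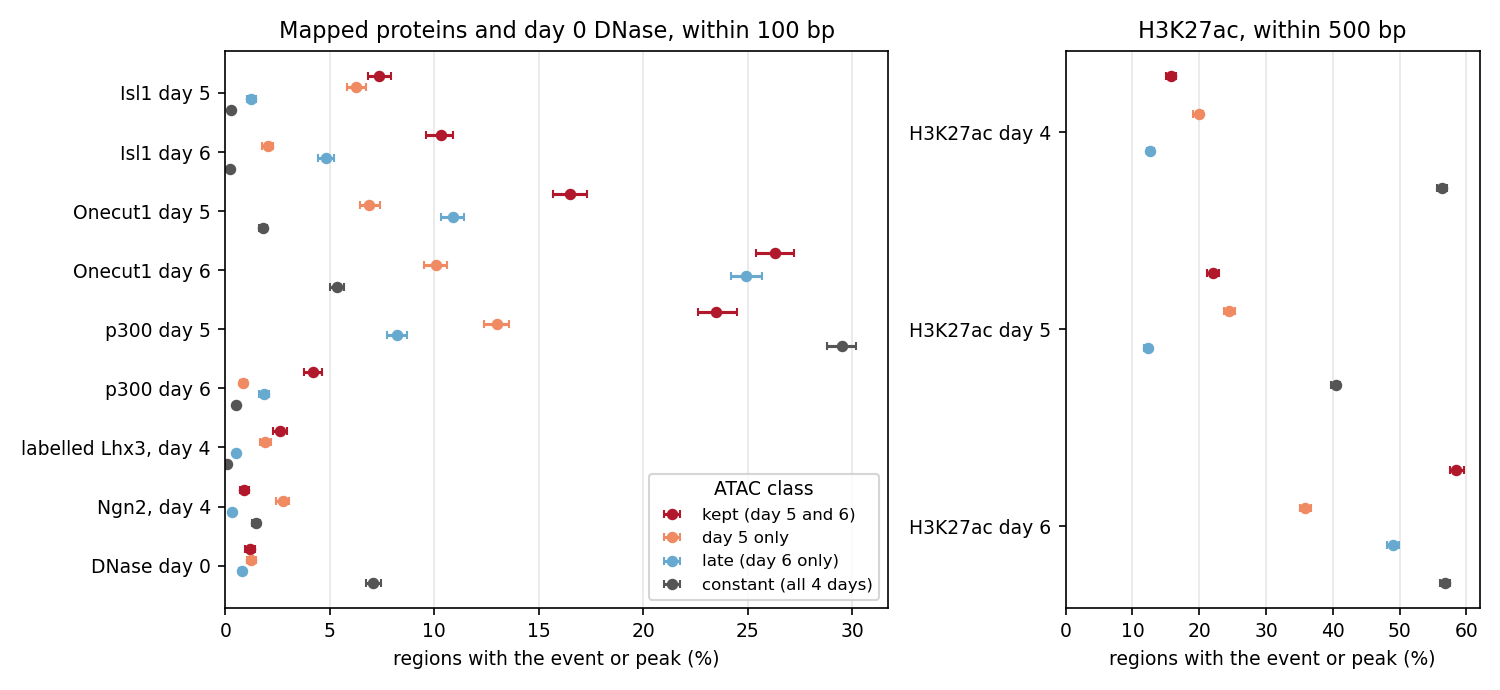
Share of regions (%) with each mapped protein or day 0 DNase site within 100 bp (left) and with H3K27ac within 500 bp (right), for the 4 ATAC classes. Points are shares and bars exact 95% binomial intervals. Kept regions had the highest shares of Isl1 on both days (7.37% and 10.3%) and a day 6 H3K27ac share of 58.5%, against 35.9% in day 5-only regions.

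H3K27ac was listed at more kept regions on day 6 than on days 4 and 5. It was present at 15.7% on day 4 (15.0 to 16.5), at 22.0% on day 5 (21.1 to 22.9) and at 58.5% on day 6 (57.5 to 59.6). Over all day 5 peaks these shares were 37.9%, 31.6% and 47.8%, so the kept regions stood below the background on days 4 and 5 and above it on day 6. The 2 day 4 libraries gave 15.1% and 12.4%. The day 6 list was the longest (47275 peaks, against 24525 on day 5), and with all lists held to the same length the kept regions had H3K27ac at 14.5%, 21.9% and 42.8% on days 4, 5 and 6. Over all day 5 peaks the day 6 share was not computed at that length, so its comparison with background is for the full lists only.

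By timing, 3024 kept regions (35.5%, 34.5 to 36.5) were acetylated on day 6 only, close to the 35.1% of the late regions and above the 14.4% of all day 5 peaks. In the day 5-only regions it was 16.4%, a difference of 19.1 points (17.9 to 20.3). At equal list length 22.7% of kept regions had this timing and the difference was 14.2 points, and it was 11.7 when regions had to overlap by 50% of a peak. Of the 5272 kept regions acetylated on any day, 57.4% were so on day 6 only. That share was 46.8% at equal list length, 47.4% with 50% overlap, 44.0% among ATAC peaks above the median score and 66.2% without earlier neighbours. Acetylation on both days 5 and 6 but not on day 4 was found at 834 (9.78%, against 3.96% of all day 5 peaks and 6.09% of the day 5-only regions). The latter was a difference that ended without the 500 bp extension (-0.0586). Only 73 kept regions (0.856%) were acetylated on day 5 alone, where 1.41% of all day 5 peaks and 4.01% of the day 5-only regions were. Acetylation on all 3 days was found at 903 (10.6%), against 23.3% of all day 5 peaks and 10.9% of the day 5-only regions. The share in the kept regions was lower than the latter by 5.93 points within rank quintiles (interval of the difference -7.03 to -4.84). No acetylation was listed on any of these days at 3253 (38.2%), against 42.4% of all day 5 peaks and 53.6% of the day 5-only regions. Of the kept regions acetylated on day 5, 92.8% were acetylated on day 6. That share was 86.3% over all day 5 peaks, 93.0% in the late regions and 95.7% in the constant regions, with the day 5-only regions lower at 69.5%. Among the 903 regions acetylated on all 3 days, 527 had an earlier ATAC peak within 250 bp, as did 259 of the 3024 acetylated on day 6 only.

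The difference from the day 5-only regions changed sign between days. On day 6 the kept regions were higher by 22.6 points (21.2 to 23.9), by 14.3 within quintiles of day 5 rank, by 18.6 at equal list length and by 12.5 without the 500 bp extension. On day 5 they were lower by 2.51 points (interval of the difference -3.69 to -1.32), and by 10.7 within quintiles. On day 4 they were lower by 4.15 points (interval of the difference -5.21 to -3.08), which was -2.18 without replicate 1 and -10.5 within quintiles. The late regions had less H3K27ac on day 5 (12.3%) and on day 6 (49.0%) than the kept regions. Against the constant regions (56.8% on day 6) the kept regions were higher by 1.69 points (0.418 to 2.95), and this turned negative under 4 alternatives. H3K27ac peaks at kept regions on day 6 had a median width of 714 bp, against 415 bp over the list. The other classes were also above the list, at 658 bp (day 5-only), 644 bp (late) and 622 bp (constant).

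**Figure D3:**
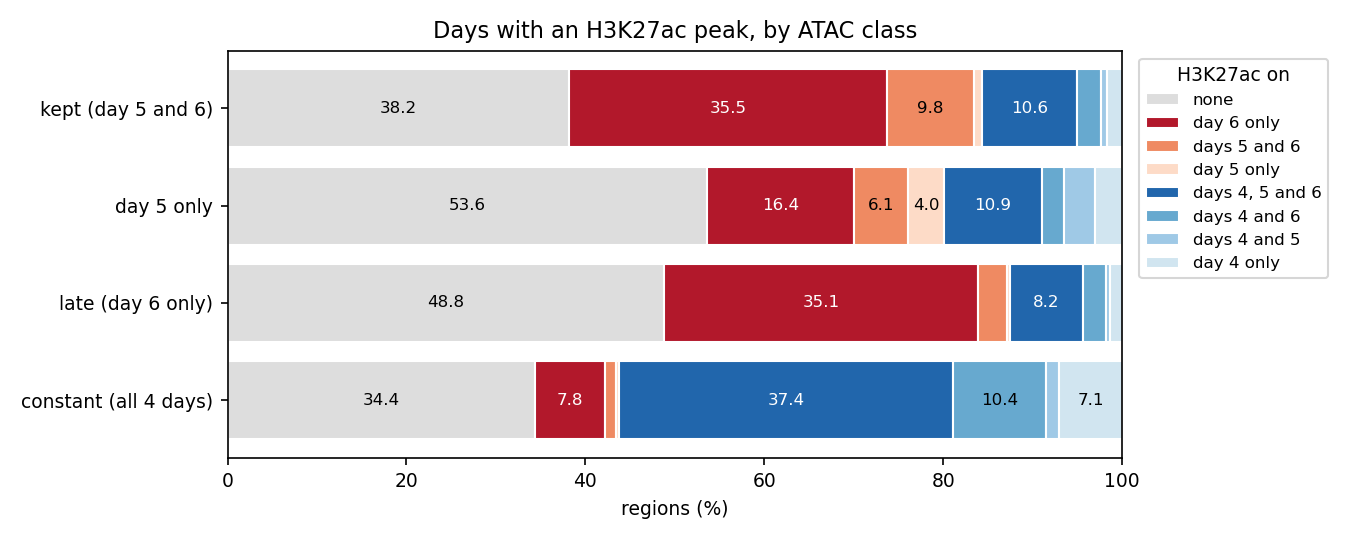
Share of regions (%) by the days (4, 5 and 6) on which an H3K27ac peak lay within 500 bp, for the 4 ATAC classes; the segments of a bar sum to the whole class. Acetylation on day 6 only made up 35.5% of kept regions and 16.4% of day 5-only regions, while acetylation on all 3 days made up 10.6% and, in constant regions, 37.4%.

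The change of rank from day 5 to day 6 went with differences in the listed Isl1 and Onecut1 events. Kept regions were split into terciles by the change of their percentile rank: 2841 lost rank (by at least 10.4 points), 2842 kept it, and 2842 gained rank (by at least 9.42 points). Isl1 on day 5 was at 1.86% of those that gained and 12.4% of those that lost rank, a difference of -10.5 points (-11.8 to -9.20), and -8.55 and -5.28 from either day 5 library alone. Isl1 on day 6 was at 14.1% and 5.63% (8.48, 6.95 to 10.0), and the difference was 5.52 and 5.70 from either day 6 library alone. Onecut1 was higher in the gaining tercile on both days, at 20.8% against 12.8% on day 5 (7.95, 6.01 to 9.88; 2.53, -0.299 to 5.36, among ATAC peaks above their list's median score) and at 35.5% against 18.2% on day 6 (17.3, 15.0 to 19.6; 6.58, 3.26 to 9.88, among those peaks). Isl1 of each day was thus more frequent where the rank of its own day was the higher, and day 6 Onecut1 was more frequent where rank was gained.

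The 2 outer terciles started from different places, with median day 5 ranks of 26.3 (gained) and 63.5 (lost). Within terciles of day 5 rank the differences were -3.80 for Isl1 on day 5 (-5.00 to -2.61), 10.9 for Isl1 on day 6, 10.1 for Onecut1 on day 5 and 17.0 for Onecut1 on day 6. For p300 on day 5 the difference of -9.76 points became 0.687 (-1.68 to 3.06). The library labelled Lhx3 (1.09% against 4.26%) and Ngn2 (0.211% against 1.58%) were lower in the gaining tercile, by 0.881 and 0.687 points at like day 5 rank. H3K27ac on day 6 was at 60.7% against 52.1% (8.60, 6.03 to 11.2), which became 20.2 (16.9 to 23.6) within terciles of day 5 rank. Among ATAC peaks above their list's median score that difference was -2.44 (-6.00 to 1.13). H3K27ac on day 5 was lower by 15.1 points in the gaining tercile (interval of the difference -17.1 to -13.0), which was -3.48 (-5.62 to -1.35) at like day 5 rank. Day 6-only acetylation was at 47.4% against 26.3%.

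The same ranks and events can also be laid out by tercile on both days, which is not a separate observation. Isl1 on day 5 lay at 23.1% (18.9 to 27.7) of the 372 regions ranked high on day 5 and low on day 6, and at 0.709% (0.146 to 2.06) of the 423 ranked low and then high. Isl1 on day 6 reversed that, with 3.49% (1.87 to 5.90) and 20.6% (16.8 to 24.7). Onecut1 on day 6 was most frequent where a low day 5 rank became high, at 44.7% (39.9 to 49.6), and was at 31.1% (29.0 to 33.4) of the 1718 regions high on both days. p300 on day 5 was at 46.0% of the regions high on both days and at 9.11% of those low on both. H3K27ac on day 6 ran from 35.4% of the 1493 regions low on both days to 82.0% of those high on both, and on day 5 from 4.26% in the low-then-high regions to 38.7%. Whether rank itself bears on how readily an event is listed was not tested.

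**Figure D4:**
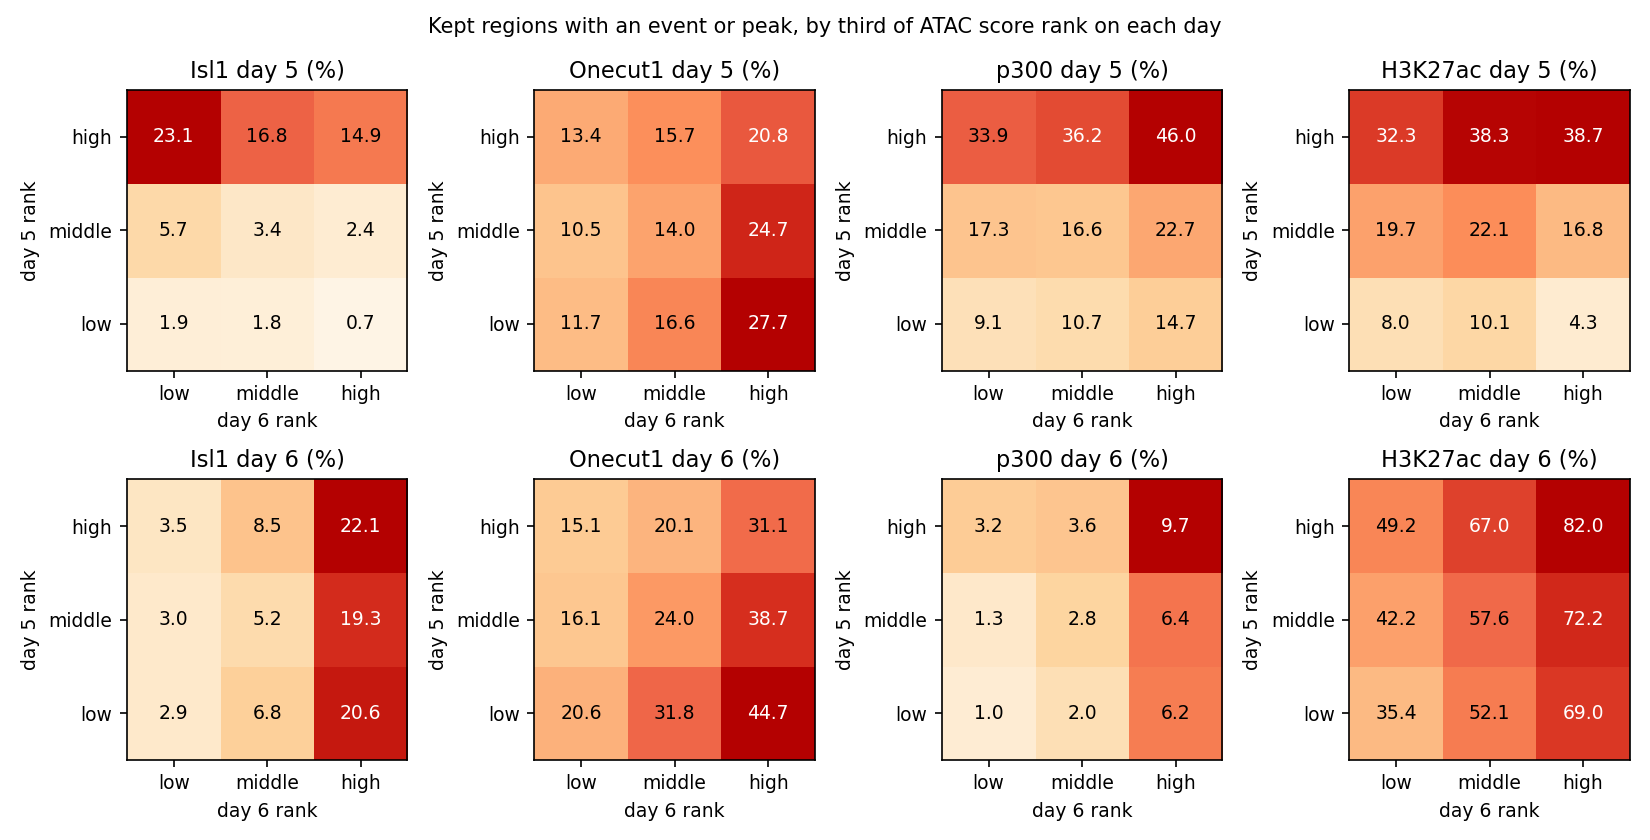
Share of kept regions (%) with each event or H3K27ac peak, by tercile of day 5 score rank (vertical) and day 6 score rank (horizontal); colours are scaled within each panel. Isl1 of day 5 was highest in the high-then-low cell (23.1%), Isl1 of day 6 in the high day 6 column (19.3% to 22.1%), and Onecut1 of day 6 in the low-then-high cell (44.7%).

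Within the kept regions, the factors differed in the acetylation they went with. Regions with Isl1 on both days had H3K27ac on day 6 at 86.0% (80.9 to 90.1) and those with Isl1 on day 6 alone at 81.6% (78.4 to 84.6), against 55.3% of the 7265 without Isl1. The latter gap of 26.3 points (22.9 to 29.3) was 23.2 (20 to 26.4) within terciles of day 5 rank and 14.1 (10.8 to 17.4) within terciles of day 6 rank. Regions with Isl1 on day 5 alone stood at 63.0%, and their difference from regions without Isl1 went from 7.61 points (2.55 to 12.4) to -3.04 within terciles of day 5 rank, with an interval that includes 0, and to 8.17 (3.34 to 13.0) within terciles of day 6 rank. Acetylation at the regions with Isl1 on day 6 alone was late: 66.5% had it on day 6 only and 3.48% had it on day 4. Regions without Isl1 stood at 32.8% and 17.2%, and all kept regions without an earlier ATAC neighbour at 39.3% and 8.30%. Whether the difference by Isl1 holds among regions without a neighbour was not tested.

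Differences by Onecut1 were smaller. H3K27ac on day 6 was at 63.0% of regions with Onecut1 on both days, at 62.2% with Onecut1 on day 6 alone and at 56.9% with neither. The difference of 6.14 points (3.07 to 9.14) for both days against neither was 5.44 (2.47 to 8.40) within terciles of day 5 rank and -0.831 (-3.77 to 2.11) within terciles of day 6 rank. H3K27ac on day 4 was at 6.86% of regions with Onecut1 on both days against 19.0% of those with neither (-12.1, -13.8 to -10.3). Both readouts also differed by earlier ATAC neighbour. With and without a neighbour, day 4 H3K27ac was at 50.8% and 8.30%, and day 6 Onecut1 at 11.4% and 29.4%. Whether the difference by Onecut1 holds among regions without a neighbour was not tested. Onecut1 on day 6 was at 57.0% of regions with Isl1 on day 6 alone and at 25.1% of those with Isl1 on day 5 alone, a difference of 31.8 points (25.8 to 37.4).

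Regions with p300 on both days had the highest share of day 6 acetylation among these groups. H3K27ac on day 6 was at 94.2% (90.3 to 96.9) of the 225 regions with p300 on both days, at 83.0% of those with p300 on day 5 alone, at 74.0% of those with p300 on day 6 alone and at 50.1% of those with neither. The 44.1 points (40.1 to 46.8) between the first and the last were 30.4 (27 to 33.8) within terciles of day 6 rank. p300 on day 5 was at 61.2% of regions with Isl1 on both days, at 49.0% with Isl1 on day 5 alone, at 36.7% with Isl1 on day 6 alone and at 19.8% without Isl1. The 4330 kept regions with no Isl1, Onecut1 or p300 event still had H3K27ac on day 6 at 47.5% (46.0 to 49.0). Over all day 5 peaks the share was 47.8%, but that set includes peaks with such events. The share over day 5 peaks without these events was not computed.

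**Figure D5:**
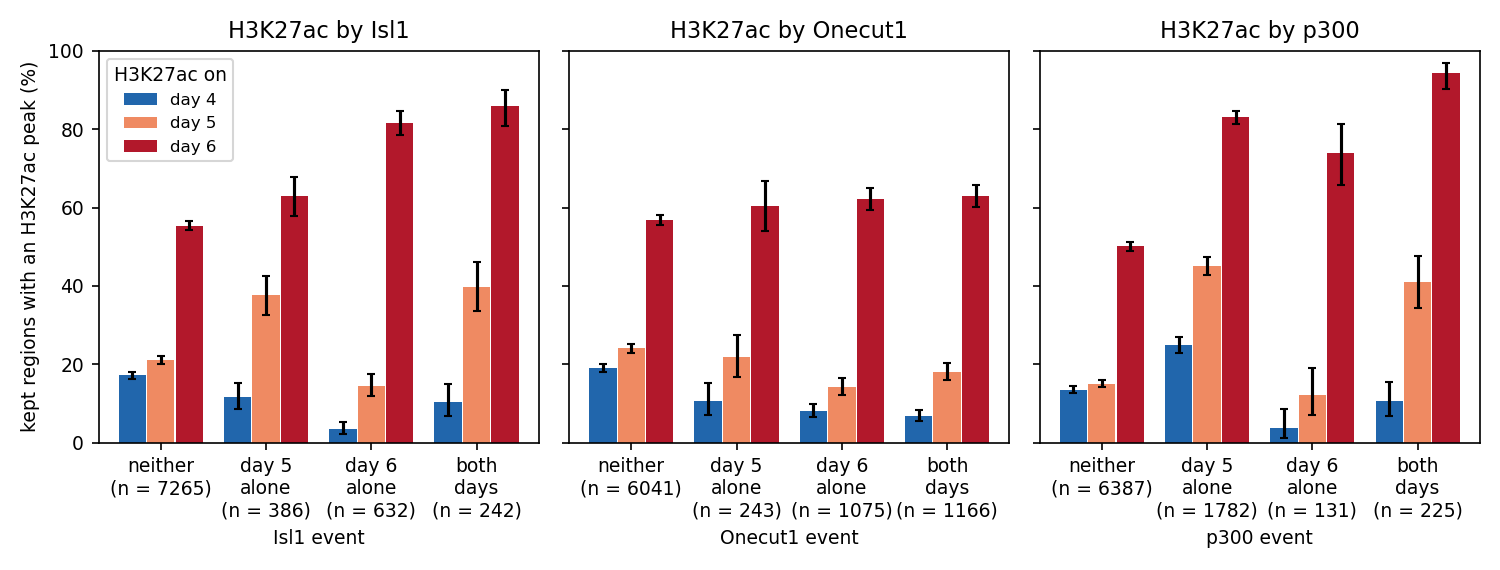
Share of kept regions (%) with H3K27ac on days 4, 5 and 6, by whether Isl1, Onecut1 or p300 was listed on neither day, on day 5 alone, on day 6 alone or on both days. Bars start at 0 and error bars are exact 95% binomial intervals. Day 6 H3K27ac was at 86.0% with Isl1 on both days, 63.0% with Onecut1 on both days and 94.2% with p300 on both days.

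The side libraries picked out smaller groups. Of the 222 kept regions in the library labelled Lhx3, 66.7% (60.0 to 72.8) had Isl1 on day 5 and 45% on day 6, and their median change of rank was -13.6 points. The 77 regions with Ngn2 had H3K27ac on day 4 at 59.7% (47.9 to 70.8) and a median change of rank of -17.4, and 46 of them had an earlier ATAC peak within 250 bp.

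Single regions are described next as examples, with the precipitated reads of the events named. Scores and reads of different libraries are not on a common scale, so between days only the ranks are compared. The largest loss of rank was at chr13:116877971-116878070, whose score went from 20.9 to 5.27. It had 82.7 and 51.5 Isl1 reads in the day 5 libraries, no Isl1 event on day 6, 65.0 reads in the library labelled Lhx3, and no H3K27ac. The second, chr2:46658534-46658633, went from 25.4 to 5.67 and had 30.0 Isl1 reads in 1 day 5 library and H3K27ac on day 6 only. It shared only 3 bp with its day 6 peak, so the day 6 score is that of a peak lying mostly beside it. At chr16:43130244-43130343 the score went from 24 to 5.67, with 66.9 and 24 Isl1 reads on day 5 and none listed on day 6. All 3 largest losses thus carried day 5 Isl1 and no day 6 Isl1.

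The largest gain was at chr10:101647547-101647646, from 4.18 to 36.5, with H3K27ac on day 6 only and no listed event of any of the factors. At chr14:121008864-121008963 the score was 3.90 on day 5 and 25.5 on day 6. Onecut1 had 20 reads on day 5 and 312 on day 6, where the medians at kept regions were 32.8 and 85.0. Isl1 was listed in 1 day 6 library with 21.0 reads, and H3K27ac was listed on day 6 only. At chr1:145785857-145785956 the score went from 4.18 to 27.1, with 10.0 Onecut1 reads on day 5. That region had no Onecut1 event on day 6, no Isl1 event on either day, and H3K27ac on day 6 only. All 3 were acetylated on day 6 only, and their day 5 scores were near the list's lowest value of 3.35.

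Isl1 in all 4 libraries with the highest mean rank was found at chr8:107729812-107729911. It scored 56.6 on day 5 and 50.6 on day 6 and had 100 and 71.3 Isl1 reads on day 5 and 80 and 128 on day 6. It also had 89.0 p300 reads on day 5, and its H3K27ac was on days 5 and 6. At chr5:12365904-12366003 Isl1 reads were 285 and 95.2 on day 5 and 31.9 and 75.4 on day 6, and the library labelled Lhx3 had 127. Of the 5 such regions, chr6:77693013-77693112 had every factor of both days, with Onecut1 at 291 and 312 reads and p300 at 95 and 57.0 on days 5 and 6. A day 4 ATAC peak scoring 20.6 lay 23 bp from it.

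Onecut1 and p300 on both days without Isl1 were seen at chr15:36225610-36225709, with 296 and 218 Onecut1 reads and 104 and 38.0 p300 reads on days 5 and 6. Its score was 46.9 and then 38.9. Of the regions with no H3K27ac on any day, chr13:85387026-85387125 was among the 3 of highest mean rank. It scored 26.8 and then 41.3, with 239 Onecut1 reads and 47.0 Isl1 reads in 1 library on day 6 and 36.0 p300 reads on day 5. A high rank with Onecut1, Isl1 and p300 was thus also seen without listed acetylation.

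Along the genome the kept regions were spread out. They were between 10.7% (chromosome 19) and 18.3% (chromosome 3) of the day 5 peaks of the autosomes and X, and 13 lay on random contigs. With neighbours joined when less than 10000 bp apart, 7025 stood alone and 1500 (17.6%) fell in groups of at least 2, of which the largest held 4. At chr5:132193636-132199030, 4 kept regions spanned 5395 bp; 2 had Isl1 on day 5, 2 on day 6, 3 had p300 on day 5, and all 4 had H3K27ac on day 6 and none on day 4. Genes, sequences and motifs at these regions were not analysed here, because the reference tables at hand are of another genome build.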

How the data were processed

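The lists were used as the authors deposited them, 1 per library; build mm9 and the tools STAR, MACS, HOMER 4.7.2 and Bowtie 0.12.7 are given, without their roles, in the submitters' processing notes. Per the file headers, event lists of Isl1, Onecut1, the library labelled Lhx3 and p300 hold the signal as precipitated and scaled control reads, a fold ratio, and −log10 p-values and q-values; strength was ranked by −log10 p. The authors deposited a score for each ATAC, H3K27ac, Ngn2 and DNase peak, used only for ranks within a list. The ATAC lists deposited by the authors also hold a p-value per peak, not used here. RNA values are FPKM made by the authors, 1 library per day. Blank entries of the DNase list were skipped. The 3 control samples (IgG and whole cell extract) were not analysed here, and the labels give no batch.

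From these, overlaps were computed in Python 3.11.15 with numpy 2.4.6, pandas 2.3.3 and scipy 1.17.1, and the overlap and interval code was tested on simulated data. ATAC peaks of different days were the same region from 1 bp of overlap. Differences within quintiles of the day 5 list, or terciles of rank, are means over the strata weighted by the first group, with normal 95% intervals. Isl1 shares of the 2 days were compared over libraries by an exact permutation test. The sources used here give no read depth, so a missing event is not evidence of absence. The regions, lists and comparisons were chosen with earlier results of these data known. Single regions were named by fixed rules: the highest scores, the highest mean ranks, the 3 largest gains and losses of rank, and the highest mean rank among regions with Isl1 in all 4 libraries, with Onecut1 and p300 on both days, or with a given H3K27ac timing; not every region so picked is described. The regions named for having no earlier neighbour, and the group of 4 regions, were picked after their values were seen. Alternatives varied the ATAC overlap, the distances, the list lengths, the libraries used and the rank strata.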

Additional observations from a re-analysis of the deposited data

How the results depend on the processing

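Of 596 values of the 56 differences under an alternative, 564 kept their direction and their side of 0. The others follow, as differences in percentage points, and the cause was not tested. Kept regions minus day 5-only regions: Isl1 on day 5 was -3.45 among ATAC peaks above their list's median score (the higher peaks below) and -2.27 within quintiles of rank. The library labelled Lhx3 was 0.236 with ATAC overlap of 50% of a peak, 0.216 in the higher peaks and 0.185 within quintiles. H3K27ac on day 4 was -0.997 with 50% overlap. Timing on days 4 and 6 was 0.943 with 50% overlap and 1.12 in the higher peaks. Timing on days 5 and 6 was -0.0586 with no extension and 0.733 in the higher peaks. Timing on all 3 days was 1.62 with 50% overlap, -0.894 with no extension, -1.06 without earlier neighbours and -5.93 within quintiles. Minus late regions: Onecut1 on day 5 was 1.19 in the higher peaks, and on day 6 it was -0.339 with 50% overlap, 0.307 with ATAC peaks within 250 bp, 0.842 with events within 250 bp and -4.08 in the higher peaks. Minus constant regions: H3K27ac on day 6 was -2.05 with ATAC peaks within 250 bp, -2.54 in the higher peaks, -9.15 among H3K27ac peaks above the median score, -8.55 at equal list length and 0.107 without earlier neighbours. Ngn2 was 0.497 with 50% overlap and 0.284 in the higher peaks, and p300 on day 5 was 0.766 with events inside the peak and -0.722 in the higher peaks. Gained minus lost rank: day 0 DNase was -0.709 with 50% overlap, H3K27ac on day 6 was -2.44 and Onecut1 on day 5 was 2.53 in the higher peaks, and p300 on day 5 was 0.687 within terciles of rank. The higher peaks left 3776 kept regions. Leaving out 1 Isl1 library in turn gave 0.874 to 1.19 for Isl1 on day 5 and 5.26 to 5.35 for day 6, against day 5-only regions, with fewer events counted by construction. Equal list lengths, the second ATAC score, named chromosomes only and the exclusion of earlier neighbours were added after seeing the data. No paired analysis was possible because shared replicate numbers exist only for Isl1 and the results are counts of regions in peak lists, not a fit over samples.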
